A study of Homo sapiens with 6 samples.

Results

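The transcriptome described here is that of unmodified K562 cells. K562 is a long-established human line from a leukemia with the BCR-ABL1 fusion, and its cells resemble early red cell precursors. The members are the 3 libraries labelled wild type, out of 6 libraries in the study. The other libraries, from cells with an ARID4B knockout, entered no value and no comparison. Per the labels, the cells grew without any agent beyond medium, serum and antibiotics. Polyadenylated RNA was sequenced as paired ends with strand information. The labels do not say whether the 3 libraries came from separate cultures, so their spread may be technical. All 3 column headers share the same prefix and the mark L1, which the labels do not explain. K562 is a single cancer line and stands for no normal cell.

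In the red cell lineage, the factors GATA1, TAL1 and KLF1 switch on genes for globins, for heme synthesis, for iron uptake and for the membrane skeleton. Globin genes lie in a beta-like and an alpha-like cluster and are used in a developmental order, from embryonic through fetal to adult members. Leukemic lines often hold an early or mixed state of this program together with genes of other lineages, and K562 is known for making embryonic and fetal hemoglobin.

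The libraries held 27889829, 30346247 and 23959808 counts in replicates 1, 2 and 3. Levels are given on either of 2 scales. CPM is counts per 1000000 counts of the library, with TMM scaling, and is used for a gene on its own. TPM is counts per kilobase of coding sequence, scaled so that the 18978 rows with a coding length sum to 1000000 per library, and it is used wherever different genes are compared. A gene counts as expressed where it reached 1 CPM in every library, and silent where it had 0 counts in every library. There is no second group, so no test was run. With 3 libraries an exact two-sided sign permutation test cannot go below 0.25. Differences between genes are read against the spread of the libraries. Values are means ± SD with n = 3 unless the single libraries are given.

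The 7 marker genes of the line were all expressed, and the fetal and embryonic globins were far above the rest. HBG1, a fetal gamma globin gene at chr11:5269502-5271087 (hg19), had 15646, 14998 and 14997 TPM. HBG2, the other gamma gene, had 10490, 9754 and 9712 TPM. HBE1, the embryonic epsilon globin gene, had 6244, 5543 and 5586 TPM. The libraries of these 3 genes did not overlap with each other, and replicate 1 was the highest in each gene. TFRC, the transferrin receptor that brings iron into the cell, had 414, 440 and 443 TPM. GATA1, the master regulator of red cell and megakaryocyte genes, had 214, 192 and 193 TPM. GATA2, its relative of earlier progenitors, had 126, 125 and 124 TPM. LYN, a Src family kinase of blood cells, had 87.9, 97.9 and 97.8 TPM. Every GATA1 library was above every GATA2 library, and every GATA2 library above every LYN library.

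Expressed genes made up 54.8% of the rows with a coding length, 10408 of 18978, and silent genes 25.1%, 4757 rows. The other 3813 rows had counts but were under 1 CPM in at least 1 library. Among all 34495 rows of the table, 11552 were expressed, 16032 were silent and 6911 lay between. The median expressed gene had 23.6 TPM. A mean of at least 10 TPM was reached by 7350 genes, at least 100 TPM by 1826, at least 1000 TPM by 165, and at least 10000 TPM by 2, RPL41 and HBG1. A count of 0 in every library allows up to 3 counts over the 82195884 counts of all 3, or 0.0365 CPM, and covers counting error only. In RNA from many cells, fewer cells with a transcript and less of it per cell cannot be told apart.

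A small number of rows held much of the library. The 10 highest rows held 8.81 ± 0.412% of the counts, the 100 highest 23.1 ± 0.570% and the 1000 highest 56.0 ± 0.320%. On the TPM scale the corresponding shares were 8.45 ± 0.273%, 28.99 ± 0.379% and 67.0 ± 0.268%. The highest row of all was RNA5-8S5, a ribosomal RNA row on an unplaced contig, with 4.32%, 3.63% and 3.60% of the counts. This RNA has no poly(A) tail, so its share also depends on how well the selection of messenger RNA worked. Without that row the 10 highest rows held 5.48%, the 100 highest 20.1% and the 1000 highest 54.2% of the counts. The 16 rows of the mitochondrial chromosome held 1.12%, 0.833% and 0.982%. Replicate 1 had the largest share of both kinds of row.

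**Figure D1:**
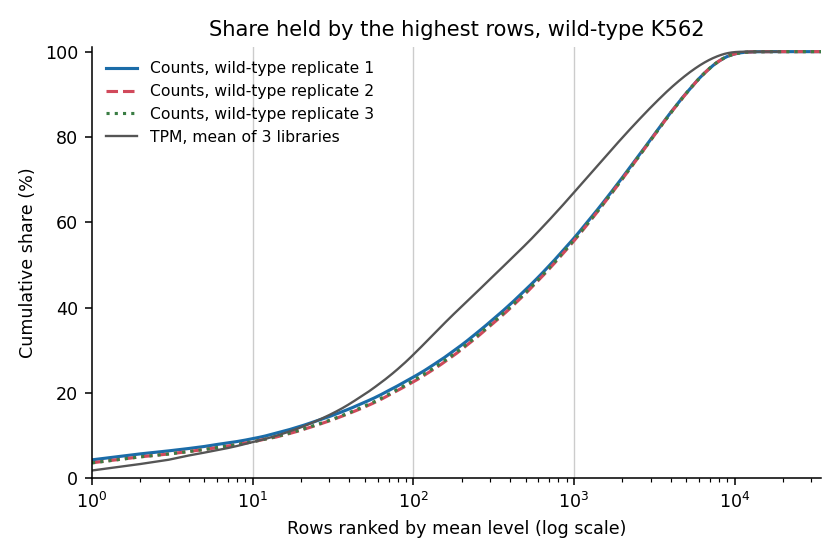
Cumulative share of the library (y axis, percent) against the number of rows ranked from the highest mean level down (x axis, log scale). The 3 count curves lie close together and pass 23.1% at 100 rows and 56.0% at 1000 rows, while the grey TPM curve passes 28.99% and 67.0%.

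Among coding genes the single rows with the most fragments were those of translation factors, globins, chaperones, tubulin and glycolysis enzymes. EEF1A1, which carries aminoacyl tRNAs to the ribosome, had 14059, 13903 and 14156 CPM. HBG1 followed with 7110, 6680 and 6749 CPM. HSP90AB1 and HSPA8, both cytosolic chaperones, averaged 5639 ± 91.3 and 4797 ± 24.1 CPM. TUBB, a beta tubulin, averaged 3597 ± 50.1 CPM, and ENO1 and GAPDH, both glycolysis enzymes, 3383 ± 23.8 and 3259 ± 50.4 CPM. As groups, the 5 elongation factor genes EEF1A1, EEF1B2, EEF1D, EEF1G and EEF2 held 2.03 ± 0.01005% of the counts, the 19 listed glycolysis genes 1.41 ± 0.00122%, and the chaperones HSP90AA1, HSP90AB1 and HSPA8 1.39 ± 0.0351%. The cytosolic ribosomal protein genes, described below, held more than any of these groups, 8.50 ± 0.142% of the counts. The SD of the glycolysis share was far under that of the ribosomal RNA row.

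Per length the order was different, and short coding sequences came to the top. RPL41, a ribosomal protein with a coding sequence of 75 bases, had 18262.7 ± 907 TPM, the highest of all. HBG1 came next with 15214 ± 374 TPM, then HBG2 with 9985 ± 438 and EEF1A1 with 9928 ± 82.3 TPM. The libraries of HBG2 and EEF1A1 overlapped, so their order is not settled. HMGA1, a chromatin protein of embryonic and tumor cells, had 6759 ± 331 TPM, HBE1 5791 ± 393, HMGN2, a nucleosome-binding protein, 4906 ± 49.7 and FTL, the ferritin light chain, 4786 ± 143 TPM. The use of coding length favors genes with long untranslated parts. On the median length of the principal transcripts, a scale chosen after these values were seen, RPL41 ranked 11, HMGA1 69, HMGN2 58 and RPL37 580. HBG1, HBG2, EEF1A1, RPS18, FTL and HBE1 were the 6 highest on that scale. RPL37 was given 7686 bases there, beside a coding sequence of 291 bases, so its rank rests on that annotated length.

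The 76 genes of the cytosolic ribosomal proteins held more of the counts and of TPM than the globins, elongation factors, ferritin chains or glycolysis genes. All 76 were expressed, and together they held 8.50 ± 0.142% of the counts and 17.8 ± 0.305% of TPM. Their levels ran from 1079 TPM for RPL24 to the level of RPL41 given above, with a median of 1960 TPM. Of the 20 highest genes by TPM 10 were ribosomal protein genes, and of the 100 highest 57. In the 3 ribosomal protein pairs examined, the common gene supplied nearly all of the pair's TPM. RPL3 held 100% after rounding beside RPL3L, RPL22 96.6 ± 0.304% beside RPL22L1, and RPL39 96.2 ± 0.206% beside RPL39L.

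Globin genes held 1.68 ± 0.0794% of the counts and 3.76 ± 0.168% of TPM, and 8 of 10 were expressed, against 54.8% of all coding rows. Within the beta-like cluster HBG1 held 49.0 ± 0.686% of the TPM, HBG2 32.1 ± 0.17% and HBE1 18.6 ± 0.53%. HBD, the minor adult delta globin gene, had 84.2, 72.1 and 77.8 TPM. HBB, the adult beta globin gene, had 25, 21 and 28 counts, which is 1.99, 1.55 and 2.59 TPM. HBB was under 1 CPM in 2 of the libraries. The 5 genes of the cluster did not overlap between neighbours in this order. HBG1 and HBG2 are near-identical copies and RSEM divides shared reads between them, so their count ratio of 1.52 ± 0.0287 is uncertain and their sum of 2.52 ± 0.0812% of TPM is less so.

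The alpha-like genes were also expressed in a mixed embryonic and later pattern. HBA1 had 3184, 2904 and 2835 TPM, and HBA2, its near-identical copy, 1649, 1475 and 1417 TPM. HBZ, the embryonic zeta globin gene, had 2187, 1895 and 1897 TPM and lay between the copies without overlap. RSEM divides shared reads between HBA1 and HBA2 as well, so the place of HBZ between them is uncertain. The sum of HBA1 and HBA2, 0.449 ± 0.0305% of TPM, is less so. The theta gene HBQ1 had 34.4, 28.1 and 30.8 TPM, while HBM, the mu globin gene, had 0 counts in every library. The summed beta-like genes exceeded the summed alpha-like genes 4.78 ± 0.160 fold on the TPM scale, with 4.60, 4.82 and 4.92 in the single libraries. AHSP, the chaperone of free alpha globin, had 41.6, 32.8 and 35.7 TPM. The globins of other tissues, MB of muscle and NGB of nerve cells, were silent, and CYGB had 6, 0 and 5 counts.

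**Figure D2:**
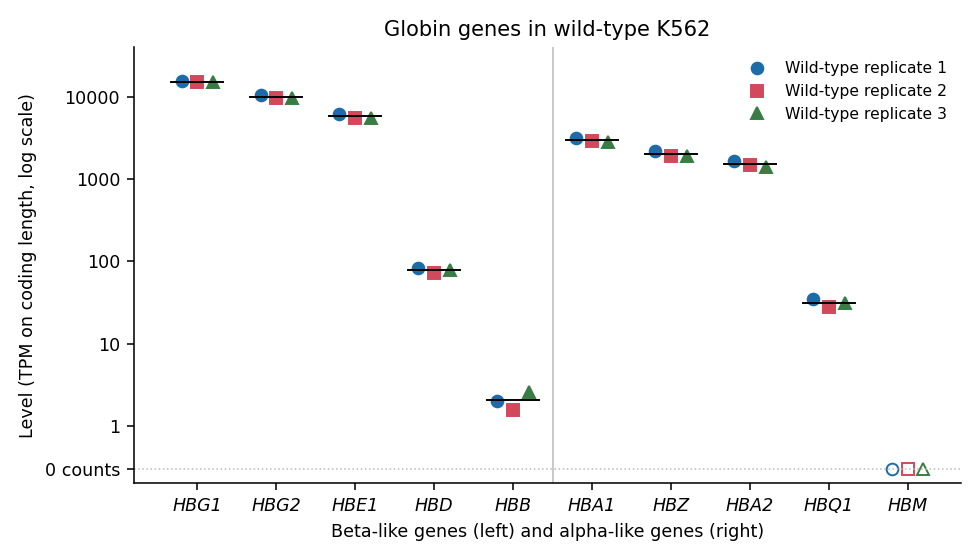
Levels of the 10 globin genes in each wild-type library (y axis, TPM on a log scale), with beta-like genes left and alpha-like genes right. Points are single libraries, the black line is their mean and open symbols mark 0 counts. HBG1 stands at 15214 TPM and HBB at 2.04 TPM, and HBM had no count in any library.

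For GATA1, KLF1, HBD and HBM, the 150 bases before the annotated start are shown because these genes represent the lineage factors, a weakly expressed globin and a silent globin. They were read from RefSeq promoter sequences of GRCh38.p14 on the strand of the gene, at chrX:48786440-48786589 (plus strand), chr19:12887202-12887351 (minus strand), chr11:5234484-5234633 (minus strand) and chr16:165828-165977 (plus strand). Capitals mark letters searched on both strands. The first is the CACCC box, to which KLF proteins bind. The next is the CCAAT box, common in promoters. Another is the GATA motif, searched as GATAA and bound by GATA factors. The last is a TATA-like box, searched as ATAAA, which can overlap the GATA motif.
GATA1: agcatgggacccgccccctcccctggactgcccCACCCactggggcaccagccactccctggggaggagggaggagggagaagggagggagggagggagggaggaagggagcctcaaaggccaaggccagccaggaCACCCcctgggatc
KLF1: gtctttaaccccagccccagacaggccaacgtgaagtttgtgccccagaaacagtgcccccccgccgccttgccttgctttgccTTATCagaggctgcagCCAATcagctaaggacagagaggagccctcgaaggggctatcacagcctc
HBD: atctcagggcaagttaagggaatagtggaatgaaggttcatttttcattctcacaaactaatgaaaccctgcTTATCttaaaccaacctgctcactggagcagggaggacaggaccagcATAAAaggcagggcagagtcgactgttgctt
HBM: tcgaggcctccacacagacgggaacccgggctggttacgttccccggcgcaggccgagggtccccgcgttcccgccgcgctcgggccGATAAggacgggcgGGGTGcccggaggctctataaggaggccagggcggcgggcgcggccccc
HBD, at 78.0 TPM, held 1 GATA motif and 1 TATA-like box and neither of the other motifs. HBM, with 0 counts, held 1 GATA motif and 1 KLF-type box, and no match to ATAAA. Its window does hold the letters TATAA, which were not searched, so a TATA-like box is not excluded there. KLF1, at 151 TPM, held 1 GATA motif and 1 match to the second motif named, and GATA1, at 200 TPM, held 2 KLF-type boxes. Among 35116 windows of the same length in the RefSeq promoter table, 39.6% held the first motif, 23.5% the second, 12.2% the GATA motif and 21.3% the TATA-like box. The GATA motif thus occurred in the window of an expressed and of a silent globin gene. A match describes letters and does not show binding.

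The listed factors of the erythroid program were nearly all present. Of 36 listed factors 34 were expressed, against 54.8% of all coding rows. This list and those below were chosen with earlier results of these data known. Their shares therefore only describe the chosen members. STAT5A, a signal transducer downstream of cytokine receptors and of BCR-ABL1, averaged 256 ± 8.96 TPM, the highest mean of the list. NFE2, which drives globin and platelet genes, had 244, 241 and 235 TPM, and MAFG, its small MAF partner, averaged 247 ± 3.3 TPM. The libraries of MAFG and STAT5A overlapped, so their order is not settled. LMO2, TAL1 and LDB1, which form a complex with GATA1, averaged 201 ± 16.1, 172 ± 6.77 and 156 ± 2.2 TPM. KLF1, the activator of adult beta globin, had 155, 150 and 147 TPM. MYB, a progenitor factor, had 81.3, 92.3 and 90.1 TPM. EPOR, the erythropoietin receptor, averaged 17.9 ± 1.5 TPM.

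The 2 listed factors that were not expressed were BCL11A and MLLT3. BCL11A, known in human red cells as a repressor of the gamma globin genes, had 0 counts in every library. MLLT3, a factor of stem cells and megakaryocyte precursors, had 3, 6 and 2 counts. The gamma globin repressor ZBTB7A was expressed at 20.1 ± 0.97 TPM, and SOX6, a further factor of globin silencing, at 5.68 ± 0.48 TPM. ZFPM1, a cofactor of GATA1, averaged 7.69 ± 1.3 TPM.

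Heme synthesis genes were expressed from the first to the last step, at unequal levels. Of 22 listed genes 19 were expressed, 86.4% against 54.8% of all coding rows. ALAS2, the erythroid form of the first enzyme, had 44.5, 38.1 and 37.1 TPM, and ALAS1, the form of other tissues, 18.0, 19.6 and 17.6 TPM, without overlap. Of the middle enzymes UROD had 534, 504.8 and 517 TPM, while ALAD averaged 22.4 ± 0.73 and UROS 37.3 ± 1.3 TPM. FECH, which inserts the iron, had 118, 116 and 118 TPM. TMEM14C, a transporter of heme precursors in mitochondria, averaged 530 ± 5.9 TPM, and its libraries overlapped those of UROD. For heme breakdown, HMOX2 averaged 62.3 ± 0.20 TPM and HMOX1, the inducible heme oxygenase, was silent.

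Of 23 iron genes 19 were expressed, 82.6% against 54.8% of all coding rows. FTL, the ferritin light chain, had 4939, 4655 and 4764 TPM and was above FTH1, the heavy chain, at 2929.5, 2981 and 2892 TPM in every library. TFRC held 91.1 ± 0.787% of the TPM of the transferrin receptors, beside TFR2, the iron sensor of liver and erythroid cells. SLC25A37, the mitoferrin of red cell precursors, held 93.2 ± 0.289% beside SLC25A28. SLC40A1, the iron exporter ferroportin, had 27.7, 30.5 and 30.8 TPM. FTMT, the mitochondrial ferritin, and STEAP2 were silent, and HAMP, which encodes hepcidin, had 13, 0 and 1 counts.

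Genes of the red cell surface and skeleton were expressed in 33 of 38 cases, 86.8% against 54.8% of all coding rows. Still, several genes of mature red cells were low. RHAG, of the Rh complex, had 504.6, 522 and 526 TPM. Of the glycophorins, the sialic acid-rich surface proteins, GYPC had 449, 414 and 420 and GYPE 402, 422 and 428 TPM, and these overlapped. GYPB averaged 202 ± 6.0 TPM and was below both in every library. GYPB and GYPE are near-identical copies and uncertain as single genes. ANK1, the red cell ankyrin, averaged 55.8 ± 2.8 TPM, and SPTB, the erythroid beta spectrin, 27.5 ± 1.4 TPM.

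At the low end, SLC4A1, the anion exchanger band 3 and a major protein of the mature membrane, had 148, 119 and 96 counts, which is 1.90, 1.42 and 1.43 TPM. EPB42, a partner of band 3, had 2.03, 2.03 and 2.20 TPM. CA2, a carbonic anhydrase of mature red cells, had 1.03, 1.08 and 1.36 TPM. CA1, the more abundant form in adult red cells, had 21.3, 23.2 and 24.8 TPM. CA8, a relative without enzyme activity, had 72.1, 76.9 and 73.3 TPM. It held 73.4 ± 1.34% of the TPM of the 8 listed carbonic anhydrases. SLC14A1, the urea transporter that carries the Kidd antigens, was silent, and DARC, the Duffy antigen, averaged 0.261 ± 0.079 TPM. Of the 44 genes listed for late erythroid differentiation, 39 were expressed, 88.6% against 54.8% of all coding rows, and none was silent.

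Megakaryocyte and platelet genes were mostly low or silent. Of the 36 measured genes 11 were expressed, 30.6% against 54.8% of all coding rows, and 13 silent, 36.1% against 25.1%. The list summed to 462, 456 and 438 TPM in the 3 libraries. The highest were SRGN, a granule proteoglycan also made by other blood cells, at 189, 195 and 194 TPM, TGFB1 at 124, 122 and 111 TPM, and FERMT3, an integrin activator, at 85.7 ± 5.7 TPM. TUBB1, the platelet beta tubulin, had 16.8, 18.2 and 16.5 TPM. ITGA2B, the platelet integrin chain CD41, had 88, 75 and 73 counts, or 0.989, 0.783 and 0.954 TPM. PF4 and PPBP, which encode platelet granule proteins, and GP9, which encodes a surface glycoprotein, had 0 counts in every library. VWF and FLI1, an ETS factor of the lineage, were silent as well.

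Markers of stem cells were further down, with 4 of 20 expressed, against 54.8% of all coding rows. Of the same list 11 were silent, against 25.1% of all coding rows. CD34, PROM1, THY1, HOXA9 and ERG had 0 counts in every library. KIT, the stem cell factor receptor, had 34, 26 and 25 counts, or 0.407, 0.289 and 0.348 TPM. ANGPT1, a ligand of the TEK receptor, had 30.4, 30.2 and 30.7 TPM and was the highest of the list. MECOM, a factor linked to myeloid leukemia, averaged 9.06 ± 1.0 and MEIS1 4.51 ± 0.29 TPM.

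Other blood lineages left few transcripts, and each list had a smaller expressed share than the 54.8% of all coding rows. Expressed members numbered 2 of 26 neutrophil genes, 4 of 22 monocyte genes, 3 of 16 mast cell and basophil genes, 2 of 18 T cell genes, 3 of 16 B cell genes and 1 of 14 NK cell genes. MPO, the granule enzyme of neutrophils, had 2, 0 and 0 counts, and CD14 of monocytes 0, 2 and 1. PAX5 and MS4A1 of B cells and CD8A of T cells were silent. Exceptions above 10 TPM were LYZ, the lysozyme gene, at 44.8, 43.6 and 44.3 TPM, FCGR2A at 38.03 ± 1.4, CD68 at 26.7 ± 0.48, MITF at 16.3 ± 1.2 and TCF7 at 12.02 ± 0.34 TPM. SPI1, a myeloid master regulator, averaged 9.30 ± 0.681 TPM. CD3D, a chain of the T cell receptor, averaged 6.93 ± 0.034 TPM, while its partners CD3E and CD3G had at most 5 counts in a library.

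Some genes of tissues outside the blood were expressed next to silent genes of the same tissue. KRT18 and KRT8, the keratin pair of simple epithelia, had 236, 241 and 238 TPM and 216, 192 and 188 TPM. EPCAM had 81.3, 80.5 and 83.3 TPM, and KRT19 averaged 58.7 ± 1.1 TPM. CDH1, the epithelial cadherin, had 0, 0 and 1 counts, and KRT5, KRT14, ESRP1 and GRHL2 were silent. In all 7 of 20 epithelial genes were expressed, 35.0% against 54.8% of all coding rows, and 9 silent, 45.0% against 25.1%.

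TNNT1, a troponin of slow muscle, had 97.9, 90.3 and 94.3 TPM, while MYOD1, MYOG and the myosin gene MYH7 were silent. NEFH, a neurofilament chain, averaged 21.2 ± 0.54 TPM, with SNAP25, MAP2 and NEFL silent. ICAM2, an adhesion protein also found on blood cells, averaged 64.9 ± 2.99 TPM, with CDH5 silent. VIM, the intermediate filament of mesenchymal and blood cells, had 93.4, 103.6 and 94.3 TPM, while LUM and PDGFRA were silent. Of the hepatocyte list only TF, at 1.92 ± 0.25 TPM, was expressed.

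**Figure D3:**
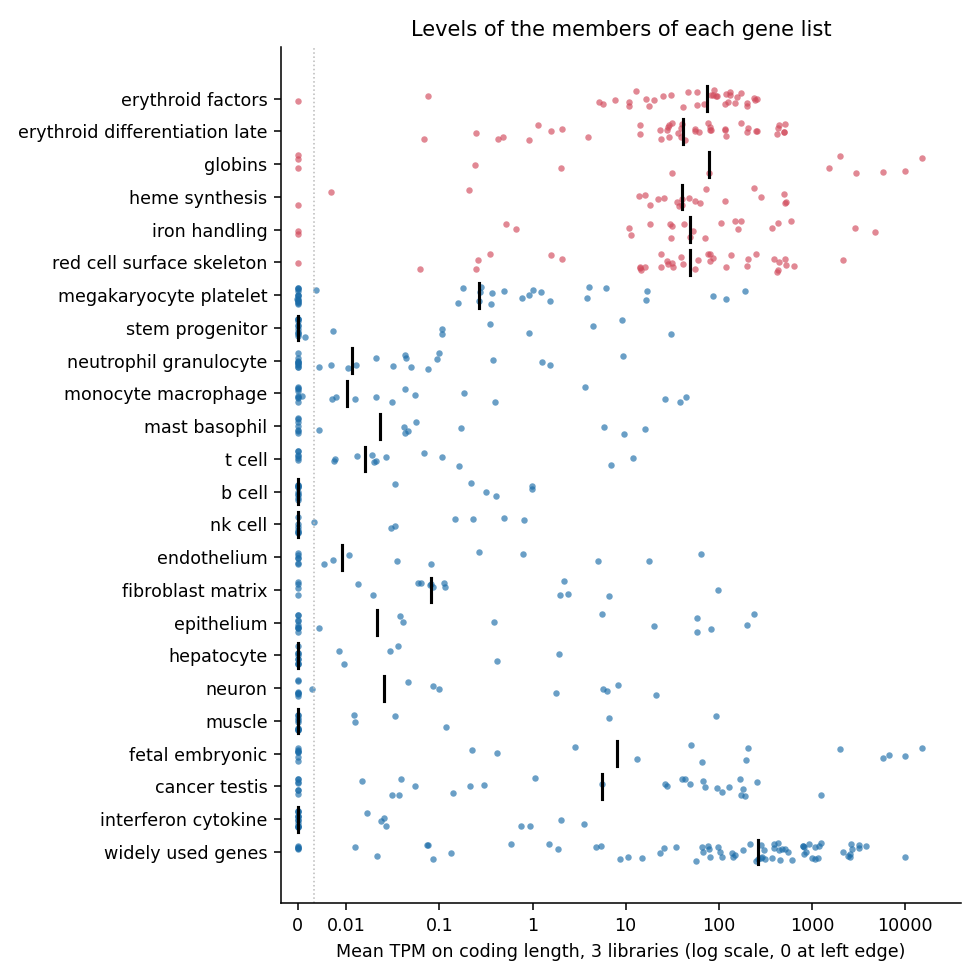
Mean TPM over the 3 wild-type libraries (x axis, log scale, with 0 at the left edge) for each member of 24 gene lists (rows). Each point is a gene and the black line is the list median. The 6 red cell lists at the top have medians from 40.03 to 78.0 TPM, while the lists of other cell types, from megakaryocytes to muscle, have medians of 0.267 TPM or less.

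Some fetal and tumor-associated genes reached high levels, although the lists as wholes did not stand above other genes. Of 22 fetal and embryonic genes 12 were expressed, 54.5% against 54.8% of all coding rows, and 8 were silent, 36.4% against 25.1%. LIN28B, which blocks the maturation of let-7 microRNAs, had 194, 202 and 199 TPM and held 98.6 ± 0.0752% of its family beside LIN28A. IGF2BP1, an RNA-binding protein of fetal cells, had 205, 215 and 203 TPM and held 64.3 ± 0.898% of the TPM of its 3 family members. HMGA1 held 100% after rounding beside HMGA2, which had 0, 3 and 3 counts. IGF2 and the pluripotency factors POU5F1, NANOG and SOX2 had 0 counts in every library.

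Of 34 cancer-testis genes, which are normally restricted to germ cells, 17 were expressed, 50.0% against 54.8% of all coding rows. Of the same genes 7 were silent, 20.6% against 25.1%. PRAME had 1248, 1250.4 and 1224 TPM. SSX1 had 241, 263 and 260 TPM, PAGE5 averaged 189 ± 6.5, GAGE1 183 ± 7.74 and MAGEA3 173 ± 7.5 TPM. Members of the GAGE, MAGEA and SSX families share much sequence and are uncertain as single genes. MAGEA10, CTAG1B and SYCP1 were silent.

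Choices within signaling families were clear in some cases and even in others. Of the STAT genes STAT5A held 55.2 ± 0.873% of the TPM, followed by STAT5B with 17.7 ± 0.62%. Of the Src family LYN held 53.1 ± 1.30% and YES1 37.5 ± 1.3%, while BLK was silent. Of the Janus kinases TYK2, with 21.5, 21.9 and 21.4 TPM, and JAK1, with 19.8, 22.3 and 22.4 TPM, overlapped, and JAK2, the kinase used by the erythropoietin receptor, was below both at 10.9 ± 0.492 TPM. ABL1, whose own row may include reads of the BCR-ABL1 fusion, had 75.7, 82.5 and 71.6 TPM, or 86.3 ± 0.48% of the ABL pair. PIM1 had 281, 271 and 271 TPM and PIM2, a related survival kinase, 253, 250 and 243 TPM, but PIM2 was the higher when transcript length was used.

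The survival and cell cycle genes showed the same kind of choice. BCL2L1, which encodes BCL-XL, had 271, 266 and 259 TPM and MCL1 222, 230 and 232 TPM, though MCL1 was the higher with no length correction, while BCL2 had only 40, 32 and 27 counts, or 1.65 ± 0.270 TPM. MYC, a driver of growth, had 248, 253 and 243 TPM and held 95.6 ± 0.174% of its family. CCND3 held 82.6 ± 0.0622% of the D cyclins at 305 ± 11.9 TPM, CCND2 14.5 ± 0.053%, and CCND1 2.90 ± 0.10%. Of the INK4 inhibitors of the D cyclin kinases CDKN2C supplied 93.9 ± 0.164% at 146 ± 5.79 TPM, and CDKN2A was silent.

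Metabolic families also differed in how far 1 member dominated. PGK1 and PGAM1 were the sole members with counts, beside the silent testis and muscle forms PGK2 and PGAM2. ENO1 held 99.4 ± 0.0654% of the enolases and ALDOA 97.3 ± 0.0549% of the aldolases. PKM held 73.3 ± 0.618% and PKLR, the pyruvate kinase of liver and red cells, 26.7% at 116, 120 and 112 TPM. LDHA had 1034, 1112 and 1128 TPM and LDHB 824, 877 and 875 TPM on coding length, but LDHB was the higher on transcript length. PFKL and PFKP overlapped, with means of 46.6 and 44.6 TPM. SLC2A1, the glucose transporter GLUT1, held 70.2 ± 2.60% of the TPM of the 4 listed glucose transporters, with SLC2A3 at 29.4 ± 2.6%. UCP2 held 99.8 ± 0.0543% of the uncoupling proteins at 153 ± 6.86 TPM.

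Chromatin and related nuclear families ranged from even to lopsided shares. ARID4B, a subunit of the SIN3 deacetylase complex, had 9.12, 9.91 and 9.79 TPM and held 72.2 ± 1.13% of the pair with ARID4A, at 3.38, 3.71 and 4.02 TPM. SIN3A held 71.9 ± 0.63% beside SIN3B. Of the class I deacetylases HDAC1 held 43.1 ± 0.862%, HDAC2 32.3 ± 1.4%, HDAC3 21.6 ± 0.56% and HDAC8 2.96 ± 0.032%. DNMT1 held 52.4 ± 0.595% of the DNA methyltransferases and DNMT3B 45.1 ± 0.81%, while DNMT3A held 2.53 ± 0.22% and DNMT3L was silent. EZH2 held 88.0 ± 0.51% beside EZH1, and SMARCA4 90.2 ± 0.066% beside SMARCA2. RUNX1 held 99.8 ± 0.12% of the RUNX factors.

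Over the 83 families with counts in at least 1 of 2 or more members measured per length, the highest member held at least 90% of the TPM in 26 families and under 50% in 13. The 2 highest members overlapped between libraries in 4 families, the Janus kinases, the glycophorins, the phosphofructokinases and the ID proteins. BCL11A and BCL11B, a further family, had no count at all. All family shares refer to the listed members, which need not be every gene of a family.

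**Figure D4:**
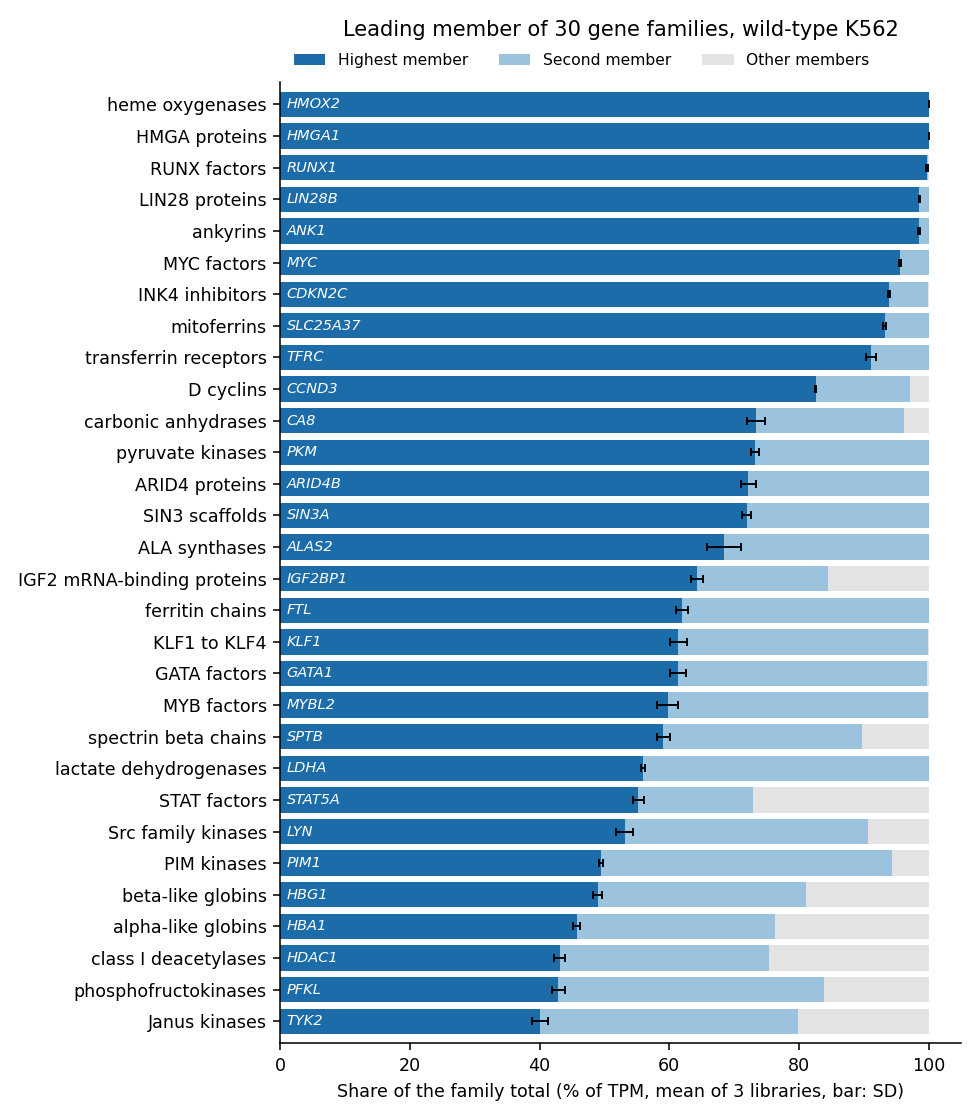
Share of the total of the listed family members in 30 families, as percent of TPM on coding length. Colors show the highest member (dark blue, named), the second member (light blue) and all other listed members (grey). Bars are means of the 3 wild-type libraries and error bars the SD of the highest member. HMOX2 and HMGA1 fill nearly the whole bar, and TYK2 holds 40.0%.

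Silent genes included some that most cells use. Of 76 widely used genes 64 were expressed, 84.2% against 54.8% of all coding rows, with EEF1A1, PPIA and RPLP0 the highest per length. On the list 5 genes were silent, 6.58% against 25.1%, namely MTAP, KLHL9, CDKN2A, DMRTA1 and ELAVL2. MTAP is an enzyme of the methionine salvage route, CDKN2A encodes the inhibitors p16 and ARF, and KLHL9 is a ubiquitin ligase adaptor. All 5 lie on the short arm of chromosome 9, where K562 is known for a deletion. The list was drawn up with that region known, and DMRTA1 and ELAVL2 are on it for their position. A run of 20 neighbouring genes from PTPLAD2 to CDKN2A, ordered by start, had 0 counts in every library, along chr9:21003623-22029593 (hg19). The end is that of the MTAP row, which reaches beyond CDKN2A and past CDKN2B. Most of the 20 are interferon genes, which are silent in most resting cells anyway.

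CDKN2B, the next gene by start and inside that interval, had 3, 0 and 0 counts. The 4 genes after it, DMRTA1, ELAVL2, IZUMO3 and TUSC1, were silent up to position 25678856. On one side the run is bounded by FOCAD with 20, 13 and 25 counts and MLLT3 with 3, 6 and 2, then SLC24A2 with 4, 12 and 6, ACER2 with 114, 117 and 104, then RPS6 with 33378, 36312 and 29296 counts. On the other side CAAP1 had 346, 366 and 328 counts and PLAA 1020, 1202 and 959. The files hold no DNA data, so a deletion and silencing cannot be told apart here. Among 5 longer runs, none with a gene of the widely used list, the 2 longest had 35 genes each. They lie on chromosome 11, mostly olfactory receptor genes, and on chromosome 21, mostly keratin-associated protein genes. The other runs, of 32, 28 and 25 genes, run from TCHHL1 and from OR2L13 on chromosome 1 and from KRT20 on chromosome 17.

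**Figure D5:**
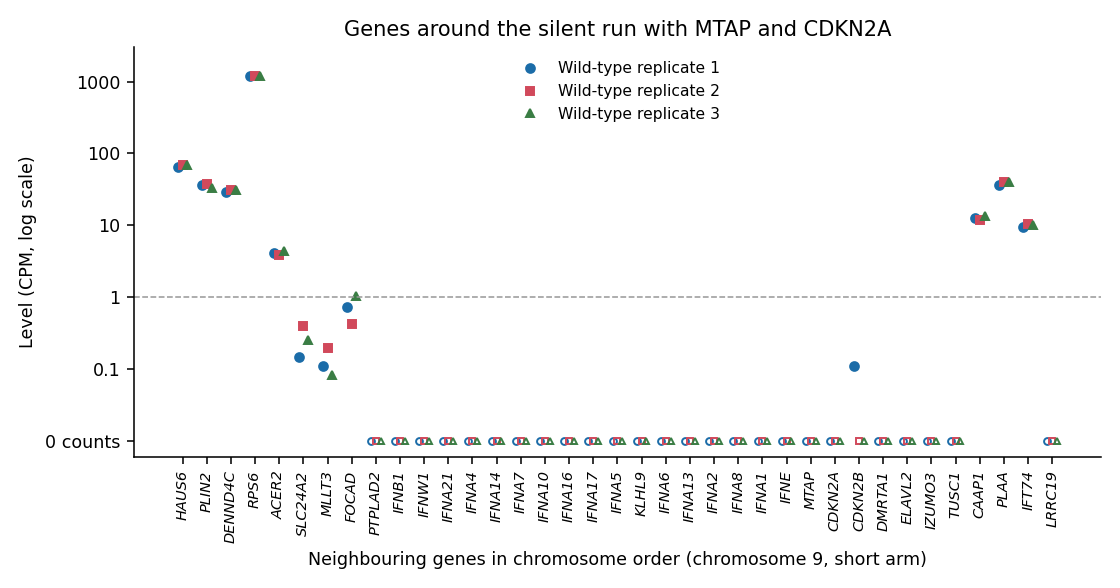
Levels of 37 neighbouring genes on the short arm of chromosome 9 in each wild-type library (y axis, CPM on a log scale, open symbols for 0 counts, dashed line at 1 CPM). The genes from PTPLAD2 to TUSC1 sit at 0 apart from 3 counts of CDKN2B in replicate 1, while RPS6 averages 1205 CPM and PLAA 38.7 CPM.

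The class I genes HLA-B and HLA-C were low next to their shared light chain. B2M, the light chain of class I molecules, had 819, 809 and 864 TPM. HLA-B had 0, 0 and 1 counts, and HLA-C 73, 55 and 45 counts, or 2.33, 1.63 and 1.67 TPM. These HLA rows are placed on an alternative contig of chromosome 6 in the table. TUBB and RPS18, rows on another alternative contig of that chromosome, averaged 2646 and 4874 TPM. Whether the placement or the assignment of reads lowered the counts of the HLA rows was not tested. HLA-DRA, of class II, was silent.

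The libraries resembled each other closely, and replicate 1 stood slightly apart. The biological coefficient of variation from edgeR was 4.69% over 12625 genes. It was 3.10% from replicates 2 and 3, 5.22% from replicates 1 and 3, and 5.50% from replicates 1 and 2. The median coefficient of variation of the 8613 rows of at least 10 CPM was 4.11%, where counting alone gives 2.74%. A coefficient over 20% was found in 16 of these rows. ID3 and ID1, inhibitors of basic helix-loop-helix factors, were among the 8 most variable. ID3 had 32.2, 5.85 and 4.78 CPM and ID1 62.8, 36.1 and 38.2 CPM, with replicate 1 the highest in both. LOC100506305, an unnamed locus on chromosome 11, had 46.5, 1.54 and 2.58 CPM. RPL36A-HNRNPH2, COMMD3-BMI1 and NME1-NME2 are rows of readthrough transcripts that share reads with their single genes.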

How the data were processed

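The authors deposited estimated counts per gene from RNA sequencing of K562 cells, with no normalization. STAR 2.4, RSEM 1.2.14, hg19 and GRCh37 are listed, without roles, per the submitters' processing notes. Between 6.90% and 7.20% of the wild-type values were not whole, because RSEM splits reads between genes, so they were rounded. The sources used here do not give whether strand entered the counting, so antisense and overlapping genes are uncertain. Another 3 columns, of knockout cells, were not used. Spreadsheet dates were turned back into 27 gene symbols, and 1 was added to start positions that count from 0.

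CPM used edgeR 4.0.16 TMM factors (0.993, 1.003 and 1.004) in R 4.3.3. TPM used coding lengths of a GRCh38 annotation, since no hg19 annotation was used here. They matched 18031 rows by symbol and 947 by accession, with 93.3% of the counts. Scripts were tested on simulated data. In a chi-square of each pair of libraries over genes, the statistic was 3.07 to 8.11 times its degrees of freedom, above the counting noise of a library deposited more than once.

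Gene lists, families and members were chosen with earlier results of these data known. Named genes are the markers, the 20 highest rows on each scale, the 3 highest and up to 3 silent members of each list, any member of the red cell and megakaryocyte lists, the 3 highest and the lowest member of each family, genes of silent runs, the 8 most variable rows, and HBB, HBD, KIT, ARID4B, CDKN2A and MTAP. Other genes named (among them PAX5, MYOD1, HOXA9, ERG, SPI1, CD3D and the HLA genes) were chosen after their values were seen. Some genes are not reported here. Intervals and floors cover counting error only.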

Additional observations from a re-analysis of the deposited data

How the results depend on the processing

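The number of expressed genes, the number of silent genes, the 3 shares of the highest rows, the globin and ribosomal protein shares, the number of marker genes expressed and the number of families led by at least 90% were recomputed under other scalings (library totals alone, upper quartile factors, DESeq2 1.42.0 size factors), without mitochondrial rows, with unrounded counts and without each library. They stayed within the spread of the libraries or within 1.5 times the main count, with 1 exception. Without mitochondrial rows the share of the 1000 highest rows was 55.6%. Leaving out the ribosomal RNA row, an alternative chosen after seeing the data, gave 5.48%, 20.1% and 54.2% for the 10, 100 and 1000 highest rows and 8.84% for ribosomal proteins, as removal of the highest row must. With each library left out in turn, the median expressed gene ran from 23.2 to 23.5 TPM and the biological coefficient of variation from 3.10% to 5.50%, the lowest without replicate 1. The number of expressed genes was 12280 at a limit of 0.5 CPM and 9588 at 5 CPM. The number of silent genes, 16032 in the main setting, was 18503 where up to 3 counts over the 3 libraries were allowed. The expression filter of edgeR removed 21870 rows. With each library left out in turn, the silent number ran from 16624 to 16741. Gene length mattered most, since the leading member's share moved by more than its SD in 63 of 83 families on the longest principal transcript and in 65 on the median one, a scale added after seeing the data, and in 35 with no length at all. The leader itself changed in 6 families on each transcript length, among them the PIM kinases, glycophorins, phosphofructokinases, lactate dehydrogenases and HMGB proteins, and in 1 with no length, where MCL1 passed BCL2L1. Leaving out replicate 1 put JAK1 above TYK2, and leaving out replicate 3 changed the leading glycophorin. Genes under 3 counts over the libraries lie below the limit of depth. No paired analysis was possible because the values describe a single group and come from no test.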

Other observations

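Groups of genes that share the start of their symbol, chosen after the values were seen, differed widely in how many members were expressed. In some, many members lay between expressed and silent, as in 25 of 48 clustered protocadherin and 21 of 44 collagen genes. Among all coding rows 3813 of 18978 lay between. Of 367 olfactory receptor genes 341 were silent and 2 expressed, against 25.1% and 54.8% of all coding rows. The expressed receptors, OR51B5 with 80.7, 81.3 and 78.2 TPM and OR51B4 with 25.8, 27.1 and 26.5 TPM, both lie beside the beta-like globin genes on chromosome 11. OR51B4 spans chr11:5322244-5323176 (hg19) and OR51B5 ends at position 5526882, where the row of HBE1 ends as well, and the row of HBG2 reaches position 5667011. Overlapping rows share reads and are uncertain as single genes. Within that span OR51B2 had 13, 30 and 14 counts and OR51I1 7, 13 and 11, while OR51B6, OR51M1, OR51Q1, OR51I2 and OR52D1 had 0 counts in every library. The keratin-associated proteins were silent in 92 of 93 genes and the interferon alpha genes in 13 of 13.

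The HOX clusters, which set position along the body axis and mark stages of blood progenitors, differed from each other. In the HOXB cluster 8 of 10 genes were expressed, 80.0% against 54.8% of all coding rows. HOXB9 had 279, 273 and 256 TPM, HOXB4 74.7, 63.8 and 63.0 TPM and HOXB2 30.5, 29.4 and 31.5 TPM. In the HOXA cluster none of 11 genes was expressed, with at most 3 counts of any gene in a library, and in the HOXD cluster none of 9. In the HOXC cluster 2 of 9 were expressed, or 22.2%, led by HOXC9 with 8.57 ± 0.314 TPM.

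Several groups of housekeeping genes were wholly or nearly wholly expressed, against 54.8% of all coding rows. All 76 mitochondrial ribosomal protein genes were expressed, with a median of 143 TPM, as were all 18 aminoacyl tRNA synthetase genes and all 6 MCM helicase genes, led by MCM7 with 407 ± 6.61 TPM. The chaperonin TCP1 group had 8 of 9 genes expressed, complex I 45 of 47, ATP synthase 17 of 19 and the proteasome 35 of 39. KCNH2, a potassium channel gene best known in the heart, had 207, 201 and 195 TPM. Of the 95 genes named KCN 47 were silent, 49.5% against 25.1% of all coding rows. Of the clustered histone genes, whose main transcripts carry no poly(A) tail, 24 of 65 were expressed, 36.9% against 54.8% of all coding rows. Another 28 lay between expressed and silent, and HIST1H2BK had 1897, 1901 and 1916 TPM. Among chromosomes the expressed share of coding rows ran from 65.1% on chromosome 16 to 43.8% on chromosome 21.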
